A study of Homo sapiens with 24 samples.

Results

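Vitamin A enters cells as retinol and is either stored or oxidised to retinoic acid, and 9 genes of this pathway were followed through mesoderm induction of human embryonic stem cells. They are LRAT, RDH10 and DHRS3 (storage and synthesis), CYP26A1 (breakdown), CRABP1 and CRABP2 (intracellular binding) and RARA, RARB and RARG (nuclear receptors). The 9 were matched by gene symbol among the 57820 genes of the deposited table, and each symbol was found. They were chosen from the levels over the hours in these same libraries. Changes over the hours are therefore given as a description, and their p-values are not printed. Where such a change is said to be called, this is a threshold for description (adjusted p under 0.05) and not a test of it. For KO against WT and for the interaction defined below, p-values are adjusted over all genes tested but make no allowance for that choice. The interaction is itself built from changes over the hours, so its p-values are descriptive only, also where a call held under the alternatives. Nothing is inferred for the group from any of these p-values.

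The cells were HUES6, a human embryonic stem cell line grown in FTDA medium, a defined medium for such cells. The knockout group (KO) lacks, by its label, the RNA-binding protein gene RBPMS, and the other genotype is labelled wild type (WT). How the knockout was made and how many clones it comprises are not given in the sources used here. KO and WT cells were each collected at 0 h as controls and at 3, 6 and 48 h of induction with 1.5 ng/ml BMP4, a growth factor, and 1.5 µM CHIR, a small molecule that switches on WNT signalling by blocking GSK3. Each of the 8 groups has 3 stranded mRNA libraries, 24 in all, and nothing in the labels ties libraries to separate cultures. The p-values therefore measure only the spread between these libraries, which may be technical.

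Retinol is esterified by LRAT for storage, or oxidised to retinaldehyde by RDH10, a step that DHRS3 can run backwards. Aldehyde dehydrogenases turn retinaldehyde into retinoic acid, which CYP26 enzymes hydroxylate for removal. Retinoic acid acts through receptors of the RAR family paired with RXR partners on DNA, and CYP26A1 and RARB are known targets of those receptors. In vertebrate embryos Cyp26a1 is expressed in the gastrulating and posterior mesoderm.

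Recovered reads per library numbered 29896358 to 50451908. Levels are read counts scaled to the library's total (CPM, as the authors deposited them), not divided by gene length. The limit that a count of 0 allows, 3 reads, corresponds to 0.0595 to 0.1003 CPM, which covers counting error only. Changes are on the log2 scale with a standard error (SE), from limma on log2(CPM + 0.25) after scaling, a scale that understates changes of low genes. A gene is said to have risen or fallen where the adjusted p was under 0.05 among 19835 genes tested. The interaction is the change from 0 h in KO minus the same change in WT. In each library pair of a group, the correlation of log levels was at least 0.995, except for WT 0 h library 1 (0.975 to 0.978 with its mates), KO 3 h library 3 (0.988 to 0.989) and WT 48 h library 3 (0.991). RBPMS mRNA averaged 155 ± 2.59 CPM in KO cells and 135 ± 17.2 CPM in WT cells at 0 h (SD, n = 3 each), so its level does not check the KO label. MEG3, a long noncoding RNA, was at 0.0214 to 0.1003 CPM in the 6 KO libraries taken at 3 h and 6 h but at 226 to 998 CPM in those of 0 h and 48 h. The KO cultures of 3 h and 6 h thus differed in this gene from the other KO cultures, and the changes of 3 h and 6 h against 0 h in KO cannot be told apart from that difference. The same holds for the interactions at 3 h and 6 h and for KO against WT at those hours. All 8 markers of human embryonic stem cells averaged at least 1 CPM in each of the 8 groups. At 48 h they summed to 7352 to 7527 CPM in KO cells and 5506 to 5823 CPM in WT cells. Of 8 markers of primitive streak and nascent mesoderm, 5 reached 1 CPM in KO cells at 48 h and 7 in WT, and they summed to 1051 to 1179 CPM in KO cells and 1689 to 1871 CPM in WT cells. MESP1 averaged 0.0565 CPM and HAND1 0.0347 CPM in KO cells at 48 h, averages below the limit of 3 reads. All 4 markers of definitive endoderm averaged at least 1 CPM at 48 h in both genotypes. They summed to 2515 to 2899 CPM in KO cells and 2129 to 2517 CPM in WT cells. The part of these markers in the 48 h results was not tested. In bulk RNA, fewer cells of a type and less RNA per cell cannot be told apart.

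**Figure D1:**
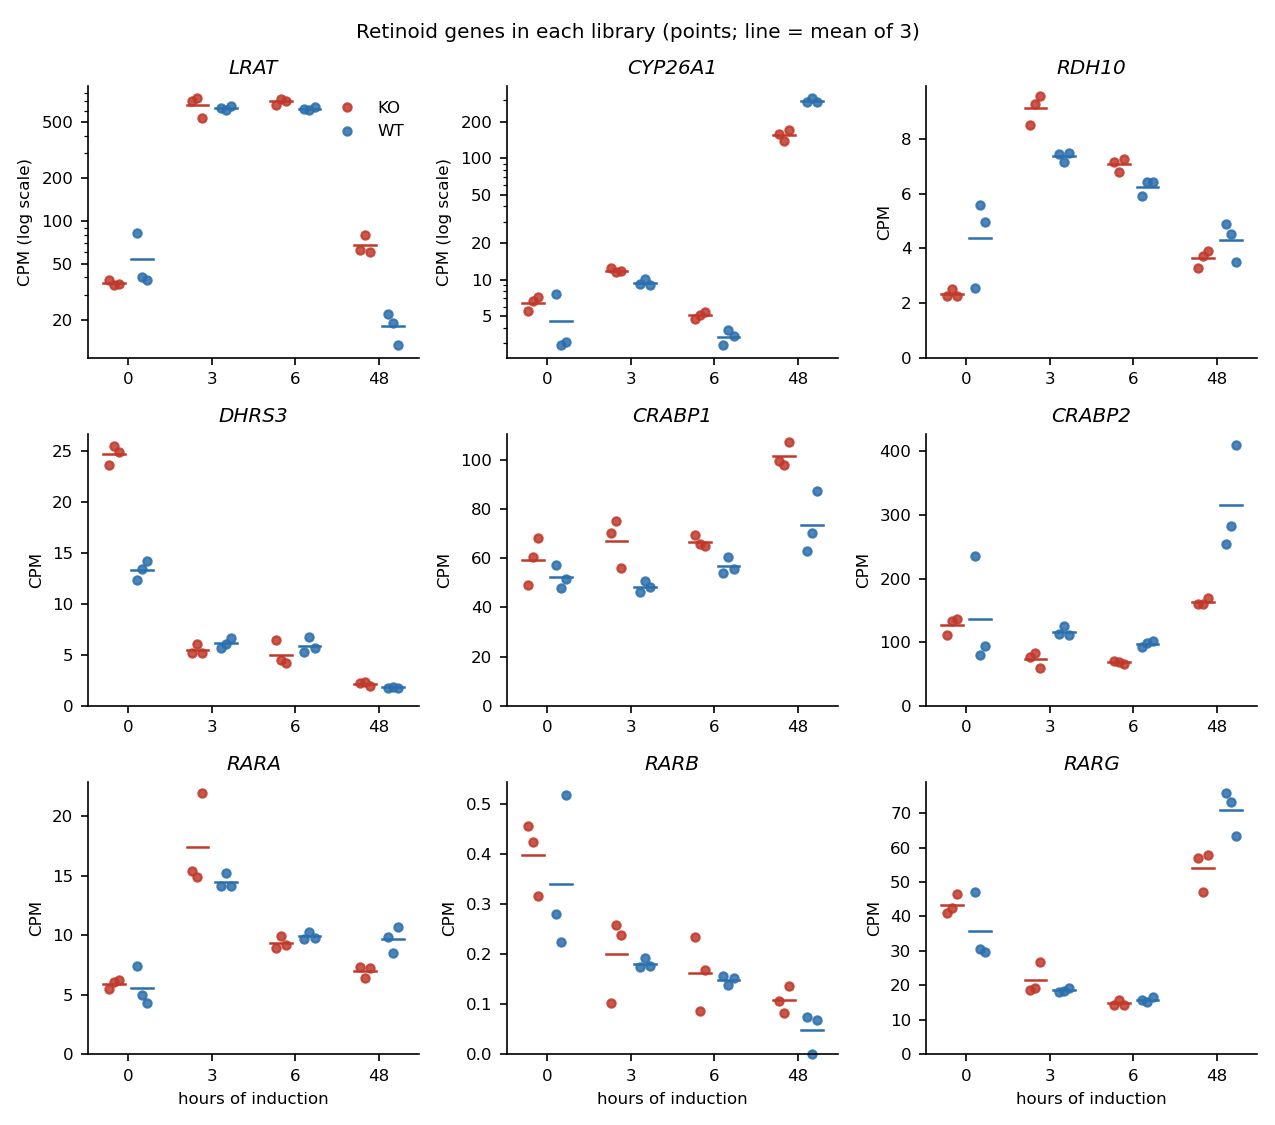
Level of each of the 9 genes in CPM (vertical axis, logarithmic for LRAT and CYP26A1 and linear from 0 for the others) at 0, 3, 6 and 48 h of induction (categories, not to scale). Points are single libraries of KO (red) and WT (blue), and lines are means of 3. LRAT is high at 3 h and 6 h, whereas CYP26A1 stands at 139 to 169 CPM in KO cells and 288 to 310.4 CPM in WT cells at 48 h.

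LRAT, the enzyme that esterifies retinol, was high for the first hours of induction in both genotypes and differed between them at 48 h. LRAT (ENSG00000121207.7) is encoded on chromosome 4 (plus strand, bases 154626945 to 154753118 of GRCh38, the build of every position given). At 0 h it stood at 38.5, 35.2 and 36.2 CPM in KO cells and 82.4, 40.3 and 38.2 CPM in WT cells. At 3 h it reached 700.3, 731 and 534 CPM in KO cells and 627, 610.1 and 649.6 CPM in WT cells. All 6 libraries of 3 h lay far above those of 0 h, and the genotypes overlapped at both hours. At 6 h the levels were 659, 726 and 703 CPM in KO cells and 612, 605 and 638 CPM in WT cells. At 48 h they were 62.7, 79.7 and 60.9 CPM in KO cells and 22, 19.1 and 13.3 CPM in WT cells. Every KO library was thus above every WT library at 6 h, by a small margin, and at 48 h. At 6 h the difference was 0.16 ± 0.20 and was not called (adjusted p = 0.907).

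The rise of LRAT from 0 h was 4.24 ± 0.20 on the log2 scale at 3 h and 4.38 ± 0.20 at 6 h in KO, and 3.78 ± 0.20 and 3.80 ± 0.20 in WT. At 48 h LRAT was still above its 0 h level in KO (0.90 ± 0.20) and below it in WT (-1.47 ± 0.20). At 48 h KO exceeded WT by 1.95 ± 0.20 (adjusted p = 3.48e-07), a 3.74-fold higher mean level in KO. In the interaction it was 2.37 ± 0.28 at 48 h (adjusted p = 9.48e-06). Both held under each alternative run. Ordered by mean, the 4 groups of 3 h and 6 h overlapped from one to the next and stood apart from the rest. KO 48 h overlapped WT 0 h through WT 0 h library 1, WT 0 h overlapped KO 0 h, and WT 48 h was lowest without overlap.

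In the deposited transcript counts, a pair of LRAT transcripts had opposite courses. These counts are whole numbers that the authors did not normalise, and no test was made on them. They cannot be read as a share of the gene reads: LRAT transcripts had 587 counts in all beside 349275 gene reads, whereas DHRS3-204 alone had 1028 counts beside 934 gene reads in KO 0 h library 1. LRAT-207, a retained-intron transcript that starts at 154744000, had 13, 4 and 31 counts in KO and 6, 6 and 12 counts in WT at 3 h. It had 6, 6 and 2 counts in KO and 10, 3 and 5 counts in WT at 6 h, and 0 in all 12 libraries of 0 h and 48 h. LRAT-203, a processed transcript that starts upstream at 154626945, had 37, 37 and 27 counts in KO and 23, 24 and 11 counts in WT at 48 h. At 3 h LRAT-203 had 12, 12 and 3 counts in KO and 10, 4 and 13 counts in WT. The 300 bases around the start of LRAT-207 (chr4:154743750-154744049, plus strand, RefSeq on GRCh38.p14) are shown because LRAT-207 had counts only at 3 h and 6 h. Such counts do not locate where transcription starts.
LRAT start at 154744000: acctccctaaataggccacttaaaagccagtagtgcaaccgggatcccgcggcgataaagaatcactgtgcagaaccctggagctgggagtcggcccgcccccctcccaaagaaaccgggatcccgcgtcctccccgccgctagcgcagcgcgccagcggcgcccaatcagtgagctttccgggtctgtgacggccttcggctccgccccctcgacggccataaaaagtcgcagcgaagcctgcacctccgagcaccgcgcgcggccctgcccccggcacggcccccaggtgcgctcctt
None of the motifs searched, spelled out with CYP26A1 below, was found in this window, which says only that those letters are not there. It is the only LRAT window, so the start of LRAT-203 was not searched.

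RDH10, the retinol dehydrogenase that makes retinaldehyde, rose at 3 h and 6 h in both genotypes from a lower start in KO. RDH10 (ENSG00000121039.5) lies on chromosome 8 from 73294612 to 73325281 on the plus strand. Before induction it had 2.25, 2.50 and 2.26 CPM in KO cells and 2.57, 5.57 and 4.98 CPM in WT cells. At 3 h it had 8.51, 9.29 and 9.57 CPM in KO cells and 7.44, 7.16 and 7.48 CPM in WT cells. KO libraries were thus the lower ones at 0 h and the higher ones at 3 h, with no overlap at either hour. The difference at 3 h, 0.29 ± 0.18, was not called (adjusted p = 0.451). The 6 h libraries held 7.15, 6.80 and 7.26 CPM in KO cells and 5.92, 6.42 and 6.42 CPM in WT cells. By 48 h the genotypes overlapped, with 3.27, 3.71 and 3.92 CPM in KO cells and 4.88, 4.52 and 3.5 CPM in WT cells.

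At 0 h RDH10 was lower in KO by -0.74 ± 0.18 (adjusted p = 0.00721). With only the groups compared this was -0.74 ± 0.27 and not called (adjusted p = 0.207). WT 0 h library 1 was close to the KO libraries, and without it the difference was -1.06 ± 0.12 (adjusted p = 6.59e-07), whereas without WT 0 h library 2 it was -0.53 ± 0.18 and not called (adjusted p = 0.0696). The rise at 3 h was 1.95 ± 0.18 in KO and 0.92 ± 0.18 in WT, and at 6 h it was 1.64 ± 0.18 in KO and 0.74 ± 0.18 in WT. The interaction was 1.03 ± 0.25 at 3 h (adjusted p = 0.0109) and 0.90 ± 0.25 at 6 h (adjusted p = 0.026). With only the groups compared both missed the threshold (adjusted p = 0.0979 and 0.0951). The call at 6 h also ended when any 1 of 7 libraries was left out, with adjusted p from 0.0552 to 0.0859. RPL7, a ribosomal protein gene on the opposite strand, overlaps RDH10 and averaged up to 659.9 CPM in a group, and no source used here states whether reads were counted by strand. RDH10-201, the coding transcript, had 178, 207 and 183 counts in KO and 176, 172 and 184 counts in WT at 3 h. At 0 h it had 37, 57 and 48 counts in KO and 68, 136 and 94 counts in WT.

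DHRS3, which reduces retinaldehyde back to retinol, was below its 0 h level at each later hour in both genotypes. DHRS3 (ENSG00000162496.4) is encoded on chromosome 1 (minus strand, 12567910 to 12617731). Before induction DHRS3 had 23.6, 25.5 and 24.9 CPM in KO cells and 12.4, 13.5 and 14.2 CPM in WT cells. At 3 h the values were 5.14, 6.05 and 5.14 CPM in KO cells and 5.66, 6.11 and 6.68 CPM in WT cells. At 48 h they were 2.21, 2.34 and 1.92 CPM in KO cells and 1.77, 1.89 and 1.75 CPM in WT cells. The genotypes were apart at 0 h, overlapped at 3 h and 6 h, and were apart by a small margin at 48 h. The differences of -0.18 ± 0.14 at 3 h, -0.24 ± 0.14 at 6 h and 0.26 ± 0.14 at 48 h were not called (adjusted p = 0.571, 0.643 and 0.291). In between, at 6 h, DHRS3 had 4.21 to 6.42 CPM in KO cells and 5.27 to 6.78 CPM in WT cells.

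DHRS3 was 1.85-fold higher in KO at 0 h, a log2 difference of 0.91 ± 0.14 (adjusted p = 0.000163). In KO the change from 0 h was -2.04 ± 0.14 at 3 h, -2.12 ± 0.14 at 6 h and -3.35 ± 0.14 by 48 h. In WT it was -0.95 ± 0.14, -0.97 ± 0.14 and -2.69 ± 0.14 over the same hours. Its interaction was -1.09 ± 0.20 at 3 h (adjusted p = 0.00109) and -1.15 ± 0.20 at 6 h (adjusted p = 0.000632). The difference at 0 h and these interactions were called under each alternative run. At 48 h the interaction was -0.65 ± 0.20 and missed the threshold (adjusted p = 0.0502), while DESeq2 (0.0458), RLE factors (0.0379) and the fit without WT 0 h library 1 (0.0352) called it. The DHRS3 transcript counts came to 98.5% of the number of gene reads, and nearly all went to DHRS3-204, with 1028, 1047 and 967 counts in KO and 619, 572 and 537 counts in WT at 0 h. DHRS3-201, which starts inside the gene, had 0 to 11 counts per library, with 1 to 11 in those of 3 h and 6 h and 0 to 3 in those of 0 h and 48 h.

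**Figure D2:**
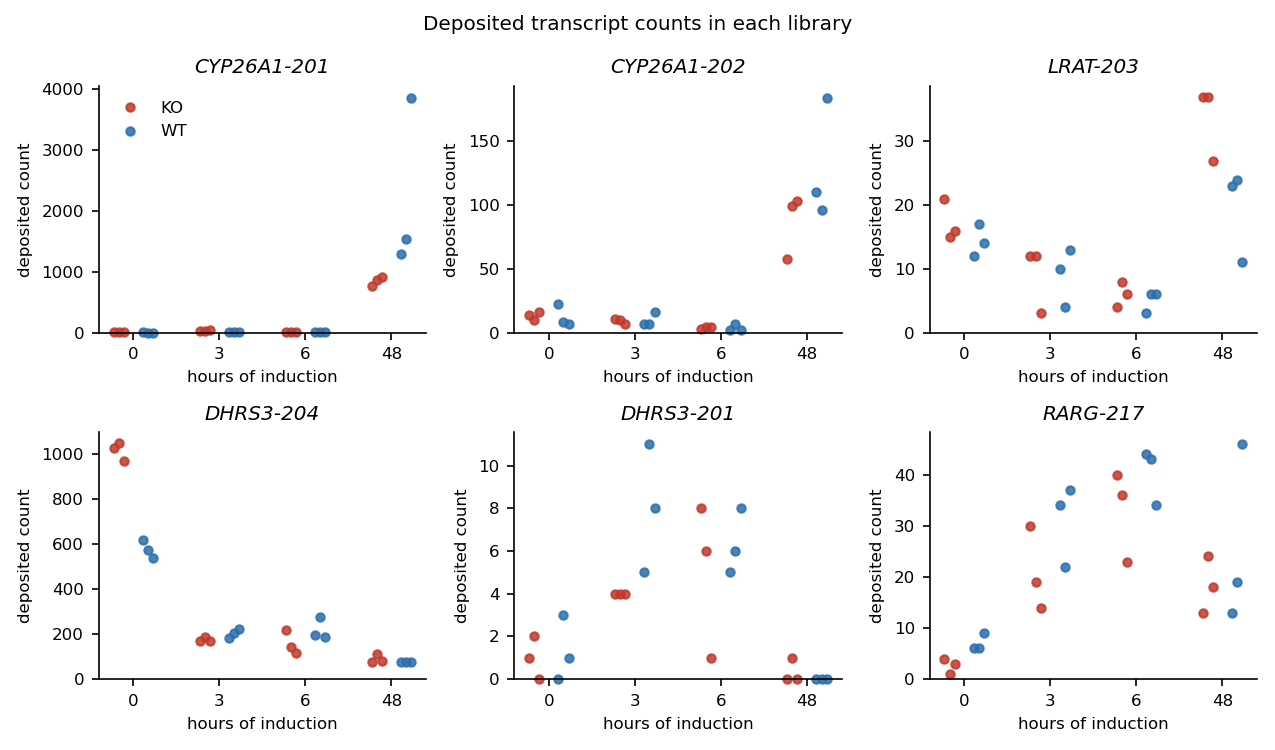
Counts per library as the authors deposited them (vertical axis, linear from 0, not normalised) for 6 transcripts of CYP26A1, LRAT, DHRS3 and RARG at 0, 3, 6 and 48 h (categories). Points are single libraries of KO (red) and WT (blue). CYP26A1-201 shows 764 to 910 counts in KO and 1294 to 3853 in WT at 48 h, with 41 or fewer in each library of the other hours.

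CYP26A1, the hydroxylase that clears retinoic acid, was the member with the largest change, a rise at 48 h that was smaller in KO. CYP26A1 (ENSG00000095596.7) is encoded on chromosome 10 (plus strand, 93073475 to 93077890). CYP26A1 levels at 0 h were 5.57, 6.61 and 7.21 CPM in KO cells and 7.61, 2.92 and 3.07 CPM in WT cells. At 3 h it had 12.4, 11.5 and 11.7 CPM in KO cells and 9.14, 10.2 and 9.07 CPM in WT cells. A brief peak at 3 h was thus seen in both genotypes, since the 6 h libraries held 4.78, 5.16 and 5.39 CPM in KO cells and 2.88, 3.85 and 3.42 CPM in WT cells. At 48 h the level was 159, 139 and 169 CPM in KO cells and 288, 310.4 and 291 CPM in WT cells. KO libraries were above WT libraries at 3 h and 6 h and below them at 48 h, with no overlap at any of the 3 hours. The differences of 0.31 ± 0.21 at 3 h and 0.56 ± 0.21 at 6 h were not called (adjusted p = 0.497 and 0.241).

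From 0 h to 48 h CYP26A1 rose by 4.57 ± 0.21 in KO and by 6.10 ± 0.21 in WT on the log2 scale. At 48 h the difference, KO minus WT, was -0.89 ± 0.21 (adjusted p = 0.00516), and the mean level in KO was 0.525 times that in WT. Its interaction at 48 h was -1.54 ± 0.30 (adjusted p = 0.00176). Both calls held under each alternative run. The rise at 3 h was 0.95 ± 0.21 in KO and 1.29 ± 0.21 in WT. At 0 h CYP26A1 was higher in KO by 0.65 ± 0.21 (adjusted p = 0.0399), although WT 0 h library 1 lay above all 3 KO libraries. Without that library the difference was 1.07 ± 0.12 (adjusted p = 4e-07). Leaving out WT 0 h library 2 (adjusted p = 0.252) or 3 (0.209), or KO 0 h library 2 (0.111) or 3 (0.131), ended the call, and edgeR did not make it (0.112). With only the groups compared the difference was 0.65 ± 0.35 and not called (adjusted p = 0.352).

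Most CYP26A1 counts that the transcript table assigns belonged to CYP26A1-201, which starts at 93073890. It had 764, 867 and 910 counts in KO and 1294, 1534 and 3853 counts in WT at 48 h, and 2, 5 and 5 counts in KO and 3, 0 and 1 in WT at 0 h. CYP26A1-202, which starts at 93073475, had 58, 99 and 103 counts in KO and 110, 96 and 184 counts in WT at 48 h, and 14, 10 and 16 in KO and 22, 8 and 7 in WT at 0 h. Summed over 3 libraries, CYP26A1-202 had more counts than CYP26A1-201 at 0 h in both genotypes, and fewer at each later hour in both. All CYP26A1 transcripts together had 10714 counts beside 61765 gene reads, and WT 48 h library 3 held far more CYP26A1-201 counts than any other library.

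Both CYP26A1 start sites have a RefSeq window of 300 bases on GRCh38.p14, 250 before the start site and 50 from it on. They are shown because most CYP26A1 transcript counts at 48 h were assigned to CYP26A1-201, whose annotated start is near the second site, at 93073893. Such counts do not locate where transcription starts, and start use was not tested. The windows of 8 members (all except RDH10) were searched on both strands for paired half-sites, each AGGTCA or AGTTCA or a form of these that begins with G (GGGTCA and also GGTTCA), on the same strand and spaced by 1, 2 or 5 bases (DR1, DR2, DR5). Such repeats are the kind RAR pairs bind. The WNT-related core CTTTGA was searched as well, and a CTTTGA match can share letters with a repeat. In the lines below, capitals mark a DR5, which in CYP26A1 lies on the opposite strand and reads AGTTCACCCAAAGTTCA there.
CYP26A1, chr10:93073225-93073524, plus strand: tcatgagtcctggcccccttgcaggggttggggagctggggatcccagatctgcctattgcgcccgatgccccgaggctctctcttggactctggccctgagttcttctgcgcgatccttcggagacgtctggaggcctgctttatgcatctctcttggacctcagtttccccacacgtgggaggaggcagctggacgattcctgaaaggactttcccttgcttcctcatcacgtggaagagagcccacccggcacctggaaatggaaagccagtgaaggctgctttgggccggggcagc
CYP26A1, chr10:93073643-93073942, plus strand: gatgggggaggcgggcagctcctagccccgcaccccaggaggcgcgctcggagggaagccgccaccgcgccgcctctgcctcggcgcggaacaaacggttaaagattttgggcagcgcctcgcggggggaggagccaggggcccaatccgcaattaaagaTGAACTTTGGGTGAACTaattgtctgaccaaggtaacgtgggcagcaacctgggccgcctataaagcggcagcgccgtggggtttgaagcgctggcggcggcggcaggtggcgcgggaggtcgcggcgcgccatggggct
RARB, chr3:25428013-25428312, plus strand: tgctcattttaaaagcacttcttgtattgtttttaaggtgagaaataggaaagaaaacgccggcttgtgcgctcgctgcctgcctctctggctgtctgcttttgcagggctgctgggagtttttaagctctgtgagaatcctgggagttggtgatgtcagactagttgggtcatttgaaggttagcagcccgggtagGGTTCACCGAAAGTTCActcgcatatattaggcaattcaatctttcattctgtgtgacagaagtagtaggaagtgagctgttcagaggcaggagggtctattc
The DR5 lies 73 bases before the CYP26A1 start site and 36 bases before the RARB start site. A DR5 of this spelling is in 0.0883% of 35116 RefSeq promoter windows, a DR1 in 0.131%, a DR2 in 0.0399% and CTTTGA in 12.9%. CTTTGA was found in 2 other RARB windows, and no further match was found in the members' windows.

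The binding proteins CRABP1 and CRABP2 went in opposite directions between the genotypes at 48 h. CRABP2, which passes retinoic acid to the nuclear receptors, is encoded on chromosome 1 (minus strand, 156699606 to 156705816) (ENSG00000143320.4). At 48 h it had 159.8, 160.1 and 169 CPM in KO cells and 254, 283 and 409 CPM in WT cells. The genotypes did not overlap at 48 h, and the highest library was WT 48 h library 3, which stood apart from its mates across all genes too. At 3 h CRABP2 had 76.9, 83.3 and 58.9 CPM in KO cells and 113, 126 and 111 CPM in WT cells. At 6 h it had 70.5, 69.3 and 65.0 CPM in KO cells and 92.2, 99.0 and 101 CPM in WT cells. KO libraries were the lower ones at both hours without overlap. At 0 h it had 112, 134 and 137 CPM in KO cells and 236, 80.0 and 94.4 CPM in WT cells, and WT 0 h library 1 was the highest and library 2 the lowest of the 6.

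The CRABP2 difference, KO minus WT, was -0.88 ± 0.25 at 48 h (adjusted p = 0.0201), and the mean in KO was 0.517 times that in WT. The call ended without WT 48 h library 3 (-0.66 ± 0.27, adjusted p = 0.148) and without KO 48 h library 1, 2 or 3 (adjusted p = 0.0669, 0.0638 and 0.0505). At 3 h the difference was -0.69 ± 0.25 (adjusted p = 0.161) and at 6 h -0.52 ± 0.25 (adjusted p = 0.475). Without the 3 libraries that stood apart these became -0.55 ± 0.079 (adjusted p = 1.87e-05) and -0.51 ± 0.071 (1.1e-05). CRABP2 fell in KO at 3 h (-0.71 ± 0.25) and 6 h (-0.75 ± 0.25) and rose in WT at 48 h (1.37 ± 0.25). At 0 h the difference was 0.10 ± 0.25 (adjusted p = 0.838) with all libraries and 0.58 ± 0.16 without WT 0 h library 1 (adjusted p = 0.00809).

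CRABP1, which binds retinoic acid in the cytoplasm, is encoded on chromosome 15 (plus strand, 78340324 to 78348230) (ENSG00000166426.7). Up to 6 h it kept a narrow range, with 49.0 to 75.2 CPM in KO cells and 46.2 to 60.4 CPM in WT cells. At 48 h it had 99.6, 97.9 and 107 CPM in KO cells and 62.8, 70.2 and 87.5 CPM in WT cells, without overlap. The difference at 48 h was 0.52 ± 0.13 (adjusted p = 0.00983), and it was not called without WT 48 h library 1 (0.40 ± 0.14, adjusted p = 0.075). The rise from 0 h to 48 h was 0.82 ± 0.13 in KO and 0.50 ± 0.13 in WT. At 3 h CRABP1 had 70.2, 75.2 and 56.2 CPM in KO cells and 46.2, 50.8 and 48.5 CPM in WT cells, a difference of 0.45 ± 0.13 that missed the threshold in limma (adjusted p = 0.0757) and passed it in edgeR (0.0466) and DESeq2 (0.0183). Per kilobase of annotated exon, mean levels at 48 h were 148 CPM for CRABP2 and 102 CPM for CRABP1 in KO, and 287 and 74.0 CPM in WT cells.

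RARA and RARG, the receptors with readily measured levels, moved in opposite directions between 0 h and 3 h. RARA (ENSG00000131759.13) is encoded on chromosome 17 (plus strand, 40309192 to 40357643). At 0 h it had 5.44, 6.07 and 6.27 CPM in KO cells and 7.44, 4.99 and 4.32 CPM in WT cells. The 3 h libraries had 15.4, 14.9 and 21.98 CPM in KO cells and 14.1, 15.3 and 14.1 CPM in WT cells. Each 3 h library was above each 0 h library, the genotypes overlapped at both hours, and the highest value came from KO 3 h library 3, which stood apart. The rise at 3 h was 1.59 ± 0.16 in KO and 1.51 ± 0.16 in WT. At 48 h RARA had 7.36, 6.40 and 7.23 CPM in KO cells and 9.87, 8.49 and 10.7 CPM in WT cells, without overlap, and the difference of -0.41 ± 0.16 was not called (adjusted p = 0.0916). At 6 h it had 8.93 to 9.95 CPM in KO cells and 9.71 to 10.3 CPM in WT cells.

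RARG (ENSG00000172819.12) is encoded on chromosome 12 (minus strand, 53210567 to 53232980). RARG levels at 0 h were 41.0, 42.5 and 46.6 CPM in KO cells and 47.0, 30.5 and 29.7 CPM in WT cells. At 6 h it had 14.3, 15.6 and 14.4 CPM in KO cells and 15.6, 15.2 and 16.7 CPM in WT cells. At 48 h it had 57.0, 47.2 and 57.9 CPM in KO cells and 75.9, 73.4 and 63.5 CPM in WT cells. RARG was thus low at 6 h and highest at 48 h in both genotypes, and the genotypes overlapped at 0 h and 6 h but not at 48 h. The fall from 0 h to 6 h was -1.39 ± 0.14 in KO and -0.95 ± 0.14 in WT, and the rise from 0 h to 48 h in WT was 1.03 ± 0.14. In KO the change by 48 h was 0.34 ± 0.14, and neither edgeR nor DESeq2 called it. KO against WT at 48 h was -0.35 ± 0.14 (adjusted p = 0.109). The interaction at 48 h was -0.69 ± 0.20 (adjusted p = 0.0302), a call that ended when any 1 of 7 libraries was left out, with adjusted p from 0.0581 to 0.0967. At 3 h RARG had 18.7 to 26.8 CPM in KO cells and 17.9 to 19.2 CPM in WT cells. RARG-217, a retained-intron transcript, had 40, 36 and 23 counts in KO and 44, 43 and 34 counts in WT at 6 h. The coding RARG-203 had 3, 10 and 3 counts in KO and 8, 9 and 7 counts in WT at that hour, against 42, 37 and 48 in KO and 68, 30 and 35 in WT at 0 h. All RARG transcripts together had 1853 counts beside 34275 gene reads.

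RARB (ENSG00000077092.14, chromosome 3 from 25174332 to 25597932, plus strand) was close to the limit of detection. It had 18, 17 and 12 reads in KO and 13, 9 and 19 reads in WT at 0 h, or 0.455, 0.424 and 0.315 CPM in KO cells and 0.28, 0.225 and 0.517 CPM in WT cells. At 48 h it had 4, 4 and 6 reads in KO and 3, 0 and 3 reads in WT. The 48 h libraries were below all 0 h libraries, with KO at 4 to 6 reads and WT at or under the limit of 3. At 3 h and 6 h each library had 4 to 11 reads. RARB reached the level of the filter (0.249 CPM) in 6 libraries, of KO 0 h, WT 0 h and KO 3 h, so it entered the test through groups where it was high. TOP2B, a topoisomerase gene that averaged up to 486 CPM in a group, overlaps RARB on the opposite strand. Per kilobase of annotated exon, mean levels at 48 h were 10.5 CPM for RARG, 1.48 for RARA and 0.0291 for RARB in KO, and 13.8, 2.05 and 0.0129 CPM in WT cells. At 3 h RARG and RARA were close on this scale, with 4.21 and 3.68 CPM in KO cells and 3.61 and 3.07 CPM in WT cells.

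**Figure D3:**
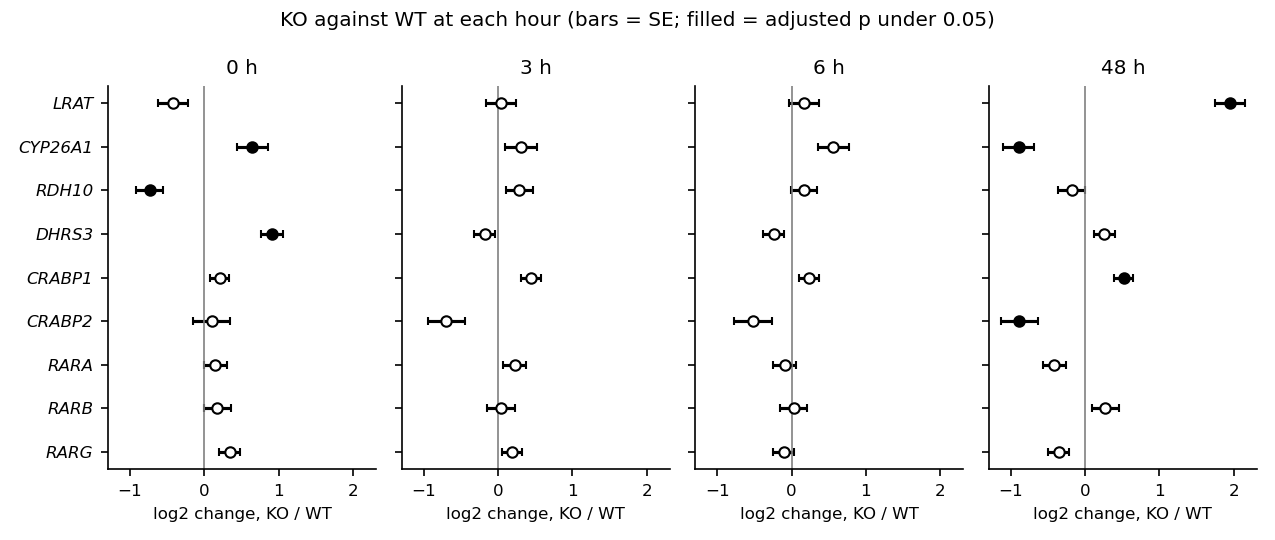
Log2 change of KO over WT (horizontal axis) for the 9 genes (rows) at 0, 3, 6 and 48 h (panels). Points are limma estimates, bars are 1 SE on each side, and filled points had an adjusted p under 0.05. At 48 h LRAT (1.95) and CRABP1 (0.52) were higher in KO, and CYP26A1 (-0.89) and CRABP2 (-0.88) were lower.

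Counted over the 9 genes, all of which were tested, KO against WT was called for 3 at 0 h, where 15.4% of all genes tested were called, and for 4 at 48 h, where 12.3% were. None was called at 3 h (2.73% of all genes) or 6 h (2.52%) by limma, with 2 at an unadjusted p under 0.05 at each hour. At 3 h edgeR and DESeq2 each called 1, CRABP1, and at 6 h each called 0. Changes from 0 h were called for 8 members at 3 h (65.7% of all genes), 8 at 6 h (68.9%) and 7 at 48 h (54.6%) in KO. In WT they were called for 6 at 3 h (55.7%), 7 at 6 h (62.4%) and 8 at 48 h (54.3%). These counts include RARB as lower in KO at 3, 6 and 48 h and in WT at 6 and 48 h. RARB reached the level of the filter only in libraries of KO 0 h, WT 0 h and KO 3 h, so the filter favoured its fall. For the interaction, calls numbered 2 at 3 h (9.07%), 2 at 6 h (8.49%) and 3 at 48 h (8.0%). Since the members were chosen with these libraries known, nothing is read from these counts. The median log2 change of the 9 at 48 h was -0.18 for KO against WT, with 0.0056 over all genes tested.

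Across the 24 libraries, the members fell into different courses. LRAT and RDH10 had a Pearson correlation of 0.82 on the log scale, DHRS3 and RARB of 0.87, CYP26A1 and RARG of 0.77, and LRAT and RARG of -0.91. Of 12311 other genes with a symbol and at least 5 CPM in a group mean, EMP1 (0.991) and ZNF195 (0.989) were most like LRAT, and MIXL1 (0.986) and GATA4 (0.983), both transcription factors of mesendoderm, were most like CYP26A1. MIXL1 averaged 533 ± 40.2 CPM in KO cells and 768 ± 124 CPM in WT cells at 48 h. CDX2 (0.958) and SALL1 (0.954) were most like RARA, with CDX2 at 34.7 CPM in KO cells and 27.1 CPM in WT cells at 3 h and 4.74 CPM in KO cells and 4.09 CPM in WT cells at 6 h. SEMA4A (0.978) and TMEM64 (0.975) were most like DHRS3, and TMTC2 (0.984) and SEMA4C (0.978) most like RARG. For the others, the 2 nearest genes were CARS and NIPA2 for RDH10, PLTP and BEX4 for CRABP1, COPG2 and CST1 for CRABP2, and TMEM38A and USP9X for RARB, with correlations from 0.842 to 0.961. These are descriptions over libraries that share groups and hours, with no test.

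The wider retinoid pathway, a list of 43 further genes of which 42 were found and 33 tested, was followed to 48 h. From 0 h to 48 h, 15 rose and 5 fell in KO (60.6% of the list, against 54.6% of all genes tested), and 15 rose and 6 fell in WT (63.6% against 54.3%), with a median log2 change of 0.062 in KO and 0.19 in WT, against 0.067 and 0.040 over all genes tested. STRA6, the cell-surface retinol transporter, reached 28.8 CPM in KO cells and 38.0 ± 3.10 CPM in WT cells at 48 h, and rose by 2.13 ± 0.19 in WT. ALDH1A3, which makes retinoic acid, averaged 10.5 ± 0.553 CPM in KO cells and 6.14 ± 0.718 CPM in WT cells at 48 h (SD, n = 3 each), a difference of 0.79 ± 0.12 (adjusted p = 6.72e-05). Its level at 0 h was 10.5 CPM in KO cells and 13.2 CPM in WT cells, and it fell by -1.04 ± 0.12 in WT by 48 h. RBP7, a retinol-binding protein, fell by -1.90 ± 0.23 in WT, and NRIP1, a receptor corepressor, rose by 0.69 ± 0.10. Between KO and WT, 3 of the 33 were higher and 2 lower in KO at 48 h (15.2% of the list, against 12.3% of all genes tested), 2 higher and 1 lower at 0 h (9.09% against 15.4%), and 1 lower at 3 h (3.03% against 2.73%).

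**Figure D4:**
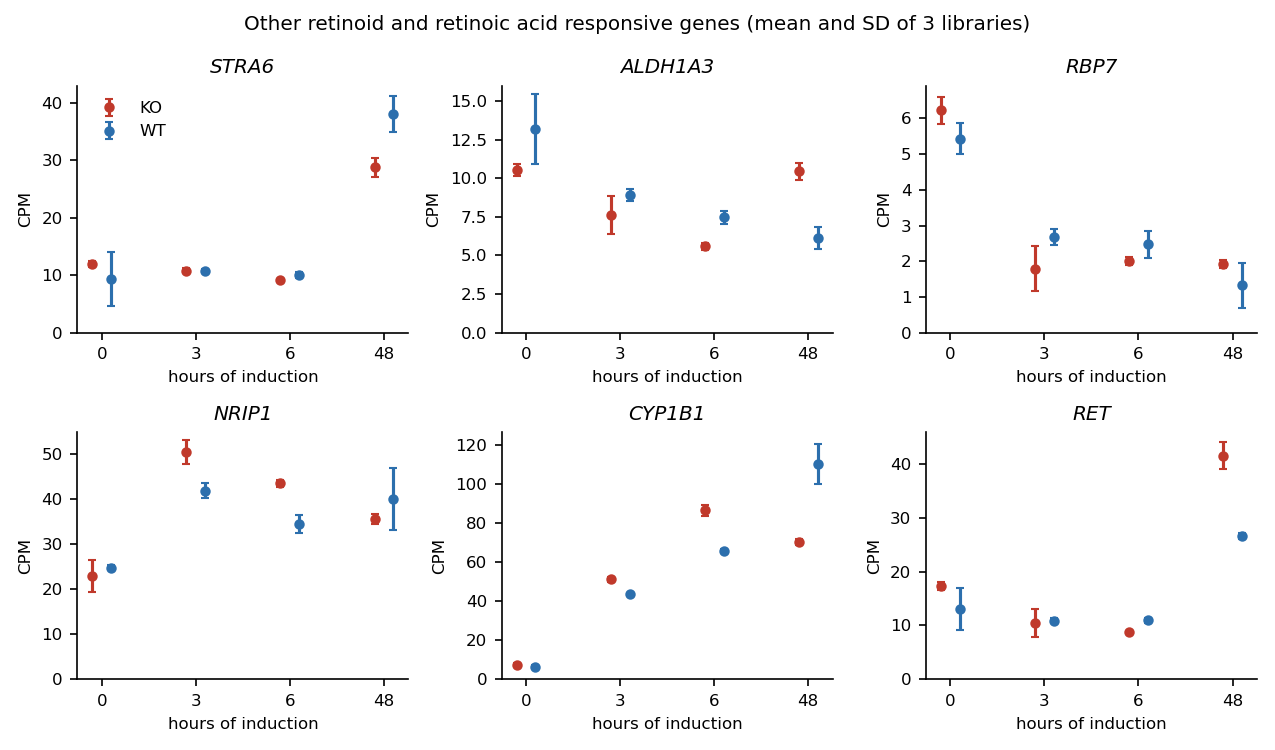
Mean CPM (vertical axis, linear from 0) of 6 other retinoid or retinoic acid-responsive genes at 0, 3, 6 and 48 h (categories) in KO (red) and WT (blue). Points are means and bars SD of 3 libraries. At 48 h STRA6 and CYP1B1 stand lower in KO than in WT, and ALDH1A3 and RET stand higher.

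Of 22 genes known to respond to retinoic acid, 21 were found and 15 tested, and KO against WT at 48 h was called for 3 as higher and 5 as lower in KO (53.3% of the list, against 12.3% of all genes tested), with a median of -0.14 against 0.0056 over all genes tested. CYP1B1, an oxidising enzyme, averaged 70.4 ± 1.57 CPM in KO cells and 110.5 ± 10.2 CPM in WT cells at 48 h, a difference of -0.60 ± 0.092 (adjusted p = 5.72e-05). CDX1, a homeobox gene, had 0.342 ± 0.0258 CPM in KO cells and 4.27 ± 1.07 CPM in WT cells at 48 h, a difference of -2.85 ± 0.15 (adjusted p = 1.55e-11). At 3 h CDX1 was far higher, at 37.2 CPM in KO cells and 31.0 CPM in WT cells. RET, a receptor tyrosine kinase, was higher in KO, with 41.6 ± 2.47 CPM against 26.6 ± 0.575 CPM in WT cells, a difference of 0.68 ± 0.15 (adjusted p = 0.0024). From 0 h to 48 h, 7 of the 15 rose and 1 fell in KO (53.3% against 54.6% of all genes tested), and 8 rose and 2 fell in WT (66.7% against 54.3%). CDX1 is also known as a WNT target, and these counts do not measure retinoic acid itself. Both this list and that of the wider pathway were drawn up with earlier results of these data known, so nothing is read from their counts.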

How the data were processed

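The authors deposited a gene table in CPM (24 libraries) and a table of counts per transcript with no normalization. Per the submitters' processing notes, hg38 and DESeq2 were used. Aligner, counting strand and annotation release are not given in the sources used here. Header cells of the gene table sat 1 cell to the left, and once this was corrected 24 of 24 libraries matched the transcript counts of their own name best. Whole reads were recovered from the CPM steps, with 100% of values whole within 0.1 read. A count test was not the main one because the unit was CPM.

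Symbols and positions came from GENCODE 29 (GRCh38), found for 52338 IDs (90.5%). CPM was divided by TMM factors from the recovered reads, and 19835 genes passed filterByExpr (minimum of 10 reads, 15 in total). limma (3.58.1, R 4.3.3) with a trend was run on log2(CPM + 0.25), with all 8 groups in 1 fit and no covariate, for 13 two-sided comparisons adjusted by Benjamini and Hochberg within each. It was tested on simulated data. Levels per kilobase used the union of annotated exons. The alternatives were RLE and upper-quartile factors, CPM as deposited, edgeR (4.0.16) and DESeq2 (1.42.0) on the recovered reads, no filter, at least 5 CPM in 3 libraries, pseudocounts of 0.1 and 1, a replicate block, array weights, only the groups compared, the 3 libraries that stood apart left out, and each library left out. The members and lists were chosen with earlier results of these data known. Named beside the members were, of each list, up to 3 genes per direction with the smallest adjusted p (at least 5 CPM in a group) in WT 48 h against 0 h and in KO against WT at 48 h, and the 2 genes most correlated with each member. The results of 2 genes named by this rule are not reported here. MEG3 and the stem cell, streak and endoderm markers were named as checks.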

Additional observations from a re-analysis of the deposited data

Results flagged for a closer look

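For 5 of the 9 genes, the change from 0 h differed between KO and WT by the test of the difference itself (the interaction, KO change minus WT change, limma with adjustment over all genes tested). The interaction was called for 9.07% of all genes at 3 h, 8.49% at 6 h and 8.0% at 48 h, and the members were chosen from their levels over these hours, so nothing is read from the count. LRAT differed at 48 h by 2.37 on the log2 scale and CYP26A1 by -1.54. RDH10 differed by 1.03 at 3 h and 0.90 at 6 h, both lost with only the groups compared (adjusted p = 0.0979 and 0.0951), and the call at 6 h also ended when any 1 of 7 libraries was left out. DHRS3 differed by -1.09 at 3 h and -1.15 at 6 h. RARG differed by -0.69 at 48 h, and that call ended when any 1 of 7 libraries was left out. Each shares its KO 0 h and WT 0 h libraries with the others of the same gene. KO minus WT, DHRS3 was 0.91 at 0 h (called), and -0.18 at 3 h and -0.24 at 6 h (not called). RDH10 was -0.74 at 0 h (called), and 0.29 at 3 h and 0.17 at 6 h (not called). The interactions of these genes were thus mostly the difference at 0 h. With 3 libraries a group, no test for an outlying library was made. The interactions at 3 h and 6 h contain the change in KO from 0 h. They cannot be told apart from the difference in MEG3 between the KO cultures.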

How the results depend on the processing

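Of 117 results (9 genes in 13 comparisons), 58 were called and 42 of these kept their direction and call under every alternative that gave a value. Those include changes over the hours, whose calls are description only. CYP26A1 in WT at 6 h against 0 h, -0.10 and not called, became 0.27 without the 3 libraries that stood apart, and ranged from -0.32 to 0.33 when single libraries were left out. CRABP2 in the same comparison, -0.13, became 0.29 without those 3 and ranged from -0.42 to 0.35. For both genes the upper end of the range came from leaving out WT 0 h library 1. What set that library apart was not tested. The number of members called in KO against WT at 0 h was 3, against 6 with array weights, 1 with only the groups compared, 7 without the 3 libraries and 1 to 6 with 1 library left out. At 3 h it was 0, against 1 with CPM as deposited, edgeR or DESeq2, 3 with array weights, 2 without the 3 libraries and 0 to 1 with 1 left out. At 6 h it was 0, against 3 with array weights, 4 with only the groups compared and 3 without the 3 libraries. At 48 h it was 4, against 7 with array weights and 7 without the 3 libraries. In WT at 6 h it was 7, against 4 with only the groups compared. The interaction was called for 2 at 3 h, against 5, 1 and 5 with array weights, with only the groups compared and without the 3 libraries, and 2 to 4 with 1 left out. At 6 h it was 2, against 4, 1 and 6, and 1 to 5. At 48 h it was 3, against 7 with array weights and 8 without the 3 libraries, and 2 to 7. Over all genes, several of these settings moved counts of KO against WT and of the interaction by over 1.5 times. KO against WT at 0 h called 3050 genes, against 5432 with array weights, 170 with only the groups compared, 9412 without the 3 libraries and 6672 without WT 0 h library 1. At 6 h it called 499, against 2738, 2754 and 2406 under the first 3 of these. With array weights and without the 3 libraries, it called 2492 and 1787 at 3 h, against 542, and 6037 and 4775 at 48 h, against 2443. The interaction over all genes called 1800 at 3 h, 1683 at 6 h and 1587 at 48 h. With array weights it called 5407, 5371 and 5392 at these hours, and without the 3 libraries 7625, 8034 and 7710. With array weights and without the 3 libraries, the member counts of KO against WT and of the interaction thus moved along with those of all genes. With CPM as deposited, the median of all genes in WT at 6 h against 0 h moved to -0.115. Libraries of the same number did not deviate together (correlations from -0.183 to 0.0619 over 30 pairs), so no pairing by number was seen. Deviations from means of 3 libraries cannot decide whether the numbers pair samples. The replicate block ended 3 calls, among them CYP26A1 in KO against WT at 0 h (0.65, adjusted p = 0.0516), and left the counts of members within 1.5 times. Depth limits RARB, with 0 to 19 reads a library.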
